A study of Homo sapiens with 24 samples.

Results

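The 4 stress response genes TRIB3, ASNS, DDIT3 and DDIT4 were read on the siRNA arrays of SW-13 cells through 1 probe each, out of 47231 probes in the deposited table. The probes were ILMN_1787815 for TRIB3, ILMN_1796417 for ASNS, ILMN_1676984 for DDIT3 and ILMN_1661599 for DDIT4, with the gene names of the Illumina HT-12 annotation, which the table itself does not hold. They were chosen with their lower signals after siSUZ12, after siBRM and after both already known, so every siRNA effect below is a description and carries no test. SW-13 cells, an established line from a human adrenocortical carcinoma, lack BRG1, an ATPase of the SWI/SNF chromatin remodelling complex. SUZ12 is a core subunit of PRC2, the complex that methylates histone H3 at lysine 27, and BRM is the other SWI/SNF ATPase. The 8 groups had 3 biological replicates each, hybridized to 24 arrays. All cells went through repeated transfection with DharmaFECT-1 and carried 50 nM of either control siRNA (siCtrl) or siSUZ12. In 4 groups this was the only siRNA, and in 4 groups 75 nM siBRM was added, for a total of 125 nM. Within each siRNA background, 1 group was left untreated and 1 was given IFNγ for 6 hours. No group held 125 nM of siRNA without siBRM, so an effect of siBRM cannot be told apart from an effect of the higher siRNA load. The paper reports that PRC2 depletion marginally raised BRM protein. It added siBRM to ask whether this rise could account for some of the interferon responses restored by siSUZ12. For BRG1-dependent interferon-stimulated genes, it reports that siBRM changed this restoration slightly or not at all.

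The 4 genes belong to the cellular response to shortage and damage. When amino acids run short or unfolded proteins collect in the endoplasmic reticulum, kinases phosphorylate the initiation factor eIF2, general translation slows, and the mRNA of the transcription factor ATF4 is translated more. ATF4 then raises a set of target genes, and this chain is known as the integrated stress response. DDIT3 encodes CHOP, a C/EBP family transcription factor that is itself an ATF4 target and can pair with ATF4. TRIB3, a pseudokinase raised by ATF4 and CHOP, restrains ATF4 in return. ASNS is the enzyme that makes asparagine from aspartate and glutamine. DDIT4, also called REDD1, holds back the growth kinase mTORC1 and responds to hypoxia and glucocorticoids as well as to ATF4. Other genes of the response, and the levels of SUZ12 and BRM themselves, were not analysed here because no table at hand paired the remaining probe IDs with genes. For the same reason the identity of the line was not checked on its markers.

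The promoters are shown because TRIB3, ASNS and DDIT3 had like profiles over the groups while DDIT4 had a shallower one. All 4 genes matched the RefSeq promoter table (GRCh38.p14), with 8 windows running from 250 bases before to 50 bases after a start site. The first window of each gene follows, 5′ to 3′ on the strand of the gene. Capitals mark TGATGNAA, the core of the C/EBP-ATF response element, and CCAAT, the box bound by NF-Y, each searched on both strands, so that a CCAAT on the other strand reads ATTGG.
DDIT3, chr12:57520465-57520764, minus strand: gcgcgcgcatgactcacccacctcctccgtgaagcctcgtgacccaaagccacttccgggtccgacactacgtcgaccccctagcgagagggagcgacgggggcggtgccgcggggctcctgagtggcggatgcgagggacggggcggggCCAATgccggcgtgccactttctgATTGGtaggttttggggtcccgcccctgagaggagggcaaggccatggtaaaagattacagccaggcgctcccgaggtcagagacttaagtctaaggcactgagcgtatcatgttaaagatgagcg
TRIB3, chr20:381045-381344, plus strand: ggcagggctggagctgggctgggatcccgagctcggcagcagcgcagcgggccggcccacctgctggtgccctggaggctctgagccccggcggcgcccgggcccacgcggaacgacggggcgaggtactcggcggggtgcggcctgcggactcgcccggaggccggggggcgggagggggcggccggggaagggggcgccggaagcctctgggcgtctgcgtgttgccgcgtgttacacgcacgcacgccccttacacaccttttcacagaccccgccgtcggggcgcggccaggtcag
ASNS, chr7:97872359-97872658, minus strand: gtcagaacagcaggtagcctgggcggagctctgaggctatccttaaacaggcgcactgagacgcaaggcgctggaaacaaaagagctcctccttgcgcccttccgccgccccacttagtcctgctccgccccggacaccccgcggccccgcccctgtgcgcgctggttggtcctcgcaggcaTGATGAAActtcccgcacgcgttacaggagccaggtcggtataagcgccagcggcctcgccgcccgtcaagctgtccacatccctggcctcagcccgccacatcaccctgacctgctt
DDIT4, chr10:72273674-72273973, plus strand: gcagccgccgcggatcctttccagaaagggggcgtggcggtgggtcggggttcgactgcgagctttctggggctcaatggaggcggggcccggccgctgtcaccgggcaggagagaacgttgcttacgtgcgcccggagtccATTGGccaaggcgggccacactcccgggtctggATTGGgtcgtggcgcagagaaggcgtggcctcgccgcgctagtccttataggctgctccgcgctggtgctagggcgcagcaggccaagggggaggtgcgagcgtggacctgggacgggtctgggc

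TGATGNAA stood in the first ASNS window, as TGATGAAA from base -68 to base -61 relative to the start, and in no other window of the 4 genes. Over all 35116 windows of the table, 3.62% held it. CCAAT occurred at 2 places in each DDIT3 window and at 2 places in the DDIT4 window, and at none in the windows of TRIB3 and ASNS. It is common, in 34.6% of all windows. The endoplasmic reticulum stress element was searched by exact letters, as CCAAT followed after 9 bases by CCACG. These letters were in none of the 8 windows and in 0.0769% of all windows. In the DDIT3 window shown, the CCAAT on the strand of the gene is followed after 9 bases by CCACT, which differs in the last letter. The CCAAT on the other strand is followed after 9 bases by GCACG, which differs in the first letter. Near matches were not counted, so the search does not show that DDIT3 lacks the element. No match overlapped another motif. These matches describe the letters in the windows only.

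Each array's signals were scaled to a common mean and taken to log2, without subtraction of background, and 1 limma fit held all 24 arrays. Array means before scaling ran from 532 to 635, and between 15223 and 16799 probes were detected on an array (detection p-value below 0.01). All 96 readings of the 4 probes were detected at that level, the highest detection p-value being 0.0013. The middle of the background, taken as the median normalized signal of probes with a mid-range detection p-value, was 88.8 to 102 over the arrays. It is not a limit of detection. Folds are understated where signals come near it, as for DDIT4 and for TRIB3 after siBRM. The residual SD of log2 signal was 0.10 for TRIB3, 0.07 for ASNS, 0.08 for DDIT3 and 0.08 for DDIT4, against a median of 0.11 over all probes. The RNA came from whole cultures, in which fewer expressing cells and less mRNA per cell cannot be told apart. With 3 arrays in a group, precision is limited by their number.

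DDIT3 had normalized signals of 2435, 2307 and 2115 on the siCtrl arrays of untreated cells. On the siSUZ12 arrays its signals were 792, 727 and 801, and on the siCtrl + siBRM arrays they were 718, 642 and 633. With both siRNAs they were 561, 583 and 504. Each siRNA group lay below all 3 siCtrl arrays, and siSUZ12 + siBRM lay below either siRNA alone without overlap. With IFNγ the siCtrl arrays read 2190, 2132 and 2219, the siSUZ12 arrays 619, 623 and 617, and the siCtrl + siBRM arrays 616, 602 and 607. The siSUZ12 + siBRM arrays with IFNγ read 523, 595 and 539. The order of the groups held in both states, but with IFNγ the arrays after siSUZ12 and after siBRM nearly met, at means of 619 ± 3.10 and 609 ± 7.12 (SD, n = 3). Over all 8 groups the mean DDIT3 signal spanned a ratio of 4.16, from 2286 ± 161 in untreated siCtrl cells to 550 ± 41 in untreated siSUZ12 + siBRM cells (SD, n = 3). Neighbours in this order whose arrays overlapped were siCtrl with and without IFNγ, and siSUZ12 + siBRM with and without IFNγ.

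TRIB3, the target of CHOP and ATF4, covered the widest ratio among the 4 genes, 7.68 between its highest and lowest group means. Its untreated siCtrl arrays had normalized signals of 2672, 2908 and 2661. After siSUZ12 the signals were 732, 627 and 666, and after siBRM they were 461, 499 and 459. With both siRNAs they were 370, 322 and 381. Unlike ASNS, TRIB3 had a lower signal after siBRM than after siSUZ12, and the arrays of these groups did not overlap. With IFNγ the siCtrl arrays read 2354, 2418 and 2568, and the siSUZ12 arrays read 682, 558 and 615. The siCtrl + siBRM arrays with IFNγ read 425, 436 and 389, and the siSUZ12 + siBRM arrays 384, 359 and 351. The same order of siRNA groups was seen as without IFNγ, and the gap between the last pair was small, with 389 the lowest value after siBRM and 384 the highest after both. In the order of all 8 groups, only siSUZ12 with and without IFNγ, and siSUZ12 + siBRM with and without IFNγ, overlapped as neighbours.

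ASNS, the enzyme of the set, had normalized signals of 13568, 14099 and 13797 on untreated siCtrl arrays. After siSUZ12 the signals were 4212, 4074 and 3962, after siBRM 5524, 5610 and 4881, and with both 2594, 2776 and 2550. Here siSUZ12 gave the lower signal of the single siRNAs, and the arrays with both siRNAs lay below those with either one. With IFNγ the siCtrl arrays read 13288, 13030 and 11611, and the siSUZ12 arrays 3517, 3564 and 3560. The siCtrl + siBRM arrays with IFNγ read 4993, 4646 and 4653, and the siSUZ12 + siBRM arrays 2711, 2551 and 2617. The siRNA groups kept their order with IFNγ. From the highest group mean, 13821 ± 267 in untreated siCtrl cells, to the lowest, 2626 ± 80.2 in siSUZ12 + siBRM cells with IFNγ (SD, n = 3), the ratio was 5.26. Overlapping neighbours were siCtrl + siBRM with and without IFNγ, and siSUZ12 + siBRM with and without IFNγ.

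DDIT4, the inhibitor of mTORC1 signalling, had normalized signals of 407, 414 and 391 on untreated siCtrl arrays. The untreated signals were 316, 345 and 316 after siSUZ12, 285, 319 and 292 after siBRM, and 301, 297 and 269 after both. All 3 siRNA groups lay below siCtrl, and siCtrl + siBRM overlapped both of the others. With IFNγ the siCtrl arrays read 319, 304 and 321, the siSUZ12 arrays 218, 198 and 219, and the siCtrl + siBRM arrays 218, 214 and 204. The siSUZ12 + siBRM arrays with IFNγ read 219, 185 and 197. DDIT4 therefore formed 3 levels, with untreated siCtrl on top at 404 ± 12.2, the other untreated groups and IFNγ-treated siCtrl between 289 and 326, each overlapping the next, and the 3 siRNA groups with IFNγ overlapping between 200.1 and 212 (group means, SD of the first, n = 3). The ratio of the highest to the lowest group mean was 2.02.

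**Figure D1:**
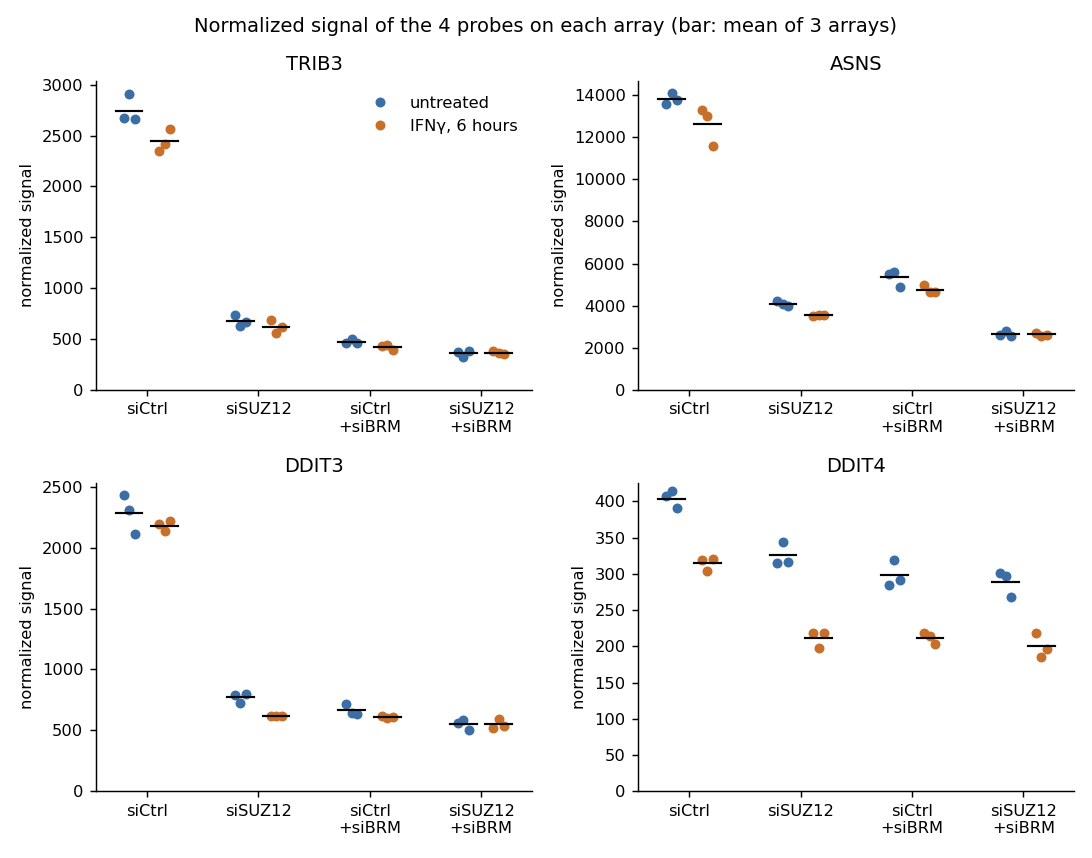
Normalized signal (linear axis from 0) of TRIB3, ASNS, DDIT3 and DDIT4 on each of the 24 arrays, by siRNA background, in untreated cells (blue) and with IFNγ (orange); points are arrays and bars are means of 3 arrays. The siCtrl arrays stand above all other arrays for TRIB3, ASNS and DDIT3, while DDIT4 also separates by IFNγ.

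In untreated cells the log2 change after siSUZ12 against siCtrl was -1.56 ± 0.08 (limma estimate ± standard error, 3 arrays against 3) for DDIT3, -2.03 ± 0.09 for TRIB3, -1.76 ± 0.08 for ASNS and -0.31 ± 0.08 for DDIT4. On the linear scale TRIB3 kept 24.5% of its siCtrl signal, ASNS 29.5%, DDIT3 33.9% and DDIT4 80.5%. Thus 3 of the 4 genes were lowered at least 2-fold, a size reached by 0.199% of all probes, and this count says nothing further because the genes were chosen on this contrast. With IFNγ, on other arrays, the changes were -1.82 ± 0.08, -1.99 ± 0.09, -1.83 ± 0.08 and -0.57 ± 0.08 in the same order of genes. Again 3 of 4 were lowered at least 2-fold, against 0.201% of all probes. The median over the 4 genes was -1.66 untreated and -1.82 with IFNγ, beside medians over all probes of 0.03 and -0.02. Among all probes, counted from the most lowered, untreated TRIB3 ranked 2, ASNS 8, DDIT3 13 and DDIT4 2050.

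After siBRM in siCtrl cells the order of the genes was different. Untreated, the log2 change was -1.78 ± 0.08 for DDIT3, -2.54 ± 0.09 for TRIB3, -1.37 ± 0.08 for ASNS and -0.44 ± 0.08 for DDIT4. TRIB3 kept 17.2% of its siCtrl signal and was the most lowered of all probes, in both states. DDIT3 kept 29.1%, ASNS 38.6% and DDIT4 73.9%. With IFNγ the changes were -1.84 ± 0.08, -2.55 ± 0.09, -1.41 ± 0.08 and -0.57 ± 0.08 in the same order. In each state 3 of 4 were lowered at least 2-fold, where the share of all probes was 0.0635% untreated and 0.055% with IFNγ. The medians over the 4 genes were -1.58 and -1.62, and those over all probes -0.02 and -0.01. The effects of siSUZ12, of siBRM and of both share the siCtrl arrays of their state, so their likeness is not independent evidence.

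With both siRNAs, untreated cells had log2 changes against siCtrl of -2.06 ± 0.08 for DDIT3, -2.94 ± 0.09 for TRIB3, -2.39 ± 0.08 for ASNS and -0.49 ± 0.08 for DDIT4. The TRIB3 signal was 7.69-fold lower than in siCtrl cells, that of ASNS 5.24-fold, that of DDIT3 4.16-fold and that of DDIT4 1.40-fold. With IFNγ these changes were -1.98 ± 0.08, -2.75 ± 0.09, -2.27 ± 0.08 and -0.66 ± 0.08. The count of genes lowered at least 2-fold was again 3 of 4, against 0.159% of all probes untreated and 0.184% with IFNγ.

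The joint effect was smaller than the sum of the single ones for every gene. In untreated cells the sum of the siSUZ12 and siBRM log2 changes was -4.57 for TRIB3 and the joint change fell short of it by 1.62 ± 0.12. For DDIT3 the sum was -3.35 and the shortfall 1.29 ± 0.11. For ASNS the sum was -3.13 and the shortfall 0.75 ± 0.11, and for DDIT4 they were -0.75 and 0.26 ± 0.11. With IFNγ the sums were -4.54, -3.66, -3.24 and -1.14 for TRIB3, DDIT3, ASNS and DDIT4, and the shortfalls were 1.80 ± 0.12, 1.67 ± 0.11, 0.97 ± 0.11 and 0.49 ± 0.11. The joint change was thus 64.5% of the sum for TRIB3, 61.5% for DDIT3, 76.2% for ASNS and 64.9% for DDIT4 in untreated cells. By this share ASNS came nearest to the sum in both states, at 70.0% of the sum with IFNγ. After background correction by neqc the shortfalls of untreated cells were 1.60 for TRIB3, 1.31 for DDIT3, 0.72 for ASNS and 0.32 for DDIT4. Median departures over all probes were 0.01 untreated and 0.03 with IFNγ, and over the 4 genes 1.02 and 1.32. The median over all probes was also near 0 for either siRNA alone, so it is no yardstick for genes chosen for their falls. The siCtrl arrays enter both single effects and the joint effect, and the shortfalls carry no test.

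**Figure D2:**
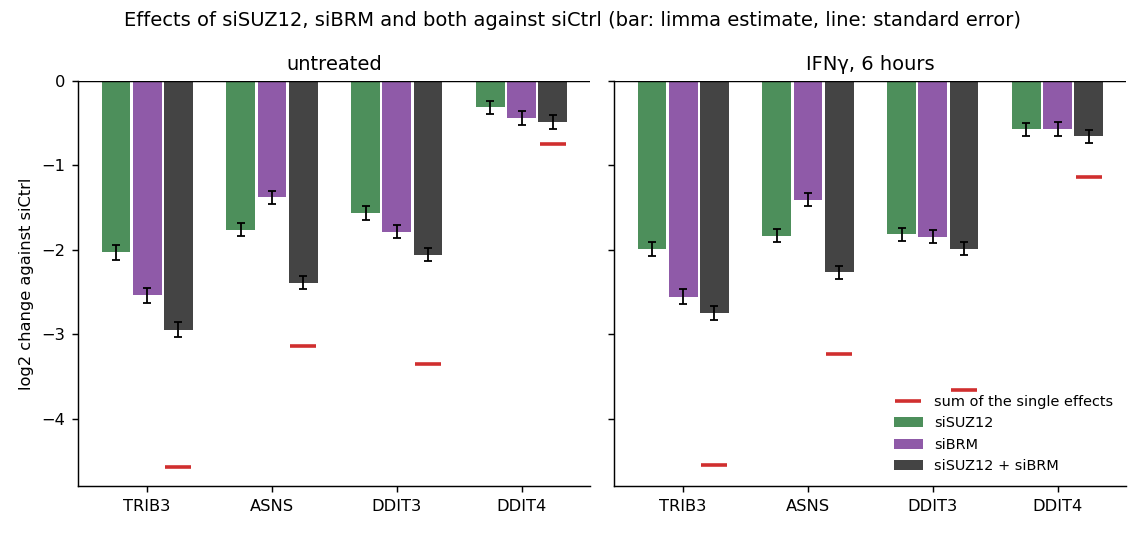
Log2 change against siCtrl after siSUZ12 (green), siBRM (purple) and both (grey), for each gene, untreated (left) and with IFNγ (right); bars are limma estimates, lines are standard errors, and the red mark is the sum of the single effects. The grey bars end above the red marks for all 4 genes in both states, by 0.26 to 1.80.

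Seen from the other side, siSUZ12 changed the genes less once siBRM was present. Against siCtrl + siBRM, untreated cells with both siRNAs had log2 changes of -0.27 ± 0.08 for DDIT3, -0.41 ± 0.09 for TRIB3, -1.01 ± 0.08 for ASNS and -0.05 ± 0.08 for DDIT4. That is 17.5% of the effect without siBRM for DDIT3, 20.0% for TRIB3 and 57.6% for ASNS. No share is given for DDIT4, whose remaining change was smaller than its standard error and was -0.11 to -0.01 without a replicate number and -0.13 with neqc. Only ASNS passed 2-fold, where 0.0169% of all probes did, and the DDIT4 arrays overlapped, with 5 of 9 array pairs lower. With IFNγ none of the 4 passed 2-fold and the share of all probes was 0.0169%. The changes there were -0.14 ± 0.08 for DDIT3, -0.19 ± 0.09 for TRIB3, -0.86 ± 0.08 for ASNS and -0.09 ± 0.08 for DDIT4. ASNS was thus at 55.1% of its siCtrl + siBRM signal, and the other genes were at 87.6% or more.

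Adding siBRM to siSUZ12 cells lowered no gene 2-fold, a size that 0.0275% of all probes reached untreated and 0.0296% with IFNγ. TRIB3 had the largest of these changes among the 4 genes, -0.92 ± 0.09 untreated and -0.76 ± 0.09 with IFNγ, with all 9 array pairs lower in each state. ASNS changed by -0.63 ± 0.08 and -0.43 ± 0.08, and DDIT3 by -0.49 ± 0.08 and -0.17 ± 0.08. DDIT4 changed by -0.17 ± 0.08 untreated and by -0.08 ± 0.08 with IFNγ, where its arrays overlapped.

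The effect of IFNγ is not named in the choice of the genes and was tested. The genes and the tests were, however, chosen with earlier results of these data known. Whether the IFNγ values played a part in that choice was not tested. The p-values for IFNγ below take no account of it. DDIT4 fell with IFNγ in all 4 siRNA backgrounds. The comparisons share no array, but they share the same estimate of the spread, and replicate numbers may pair arrays across groups. They are thus not fully independent. In siCtrl cells the log2 change was -0.36 (95% interval -0.52 to -0.20, adjusted p = 0.0117, limma with Benjamini-Hochberg adjustment over all probes). It was -0.62 in siSUZ12 cells (-0.78 to -0.46, adjusted p = 9.26e-07, limma). With siBRM it was -0.49 in siCtrl cells (-0.65 to -0.33, adjusted p = 8.98e-05, limma) and -0.53 in siSUZ12 cells (-0.69 to -0.37, adjusted p = 1.75e-05, limma). In each background all 9 pairs of an IFNγ array with an untreated array were lower. DDIT4 kept between 65.0% and 77.8% of its untreated signal, and ranked 8 from the most lowered among all probes in siSUZ12 cells and 37 in siCtrl cells.

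The fall of DDIT4 in siCtrl cells was the least secure of these. It lost its adjusted p below 0.05 without siCtrl untreated replicate 1 (0.0614) or 2 (0.0826), without siCtrl IFNγ replicate 2 (0.0955, limma each), and without any replicate number, where adjusted p was 0.131 to 0.44. In the other 3 backgrounds the call held under all 16 alternatives. With background correction by neqc the falls were larger, -0.47 in siCtrl, -0.87 in siSUZ12, -0.71 in siCtrl + siBRM and -0.79 in siSUZ12 + siBRM cells.

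Of the other 12 tests, 1 passed the threshold. DDIT3 fell in siSUZ12 cells by 0.32 on the log2 scale (adjusted p = 0.0216, limma), with all 9 array pairs lower. This call was lost without any of 5 of the 6 arrays: siSUZ12 untreated replicate 1 (adjusted p = 0.104, limma) or 3 (0.116), and siSUZ12 IFNγ replicate 1 (0.0632), 2 (0.0737) or 3 (0.087). It was also lost without any replicate number (0.134 to 0.301, limma) and in a fit of those groups alone (0.0583). In siCtrl cells the DDIT3 change was -0.07 (95% interval -0.23 to 0.09), in siCtrl + siBRM cells -0.12 (-0.28 to 0.04) and in siSUZ12 + siBRM cells 0.01 (-0.15 to 0.17).

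TRIB3 and ASNS passed in none of the 4 backgrounds. The TRIB3 changes were -0.17 (95% interval -0.34 to 0.01) in siCtrl, -0.13 (-0.30 to 0.05) in siSUZ12, -0.18 (-0.36 to -0.01) in siCtrl + siBRM and 0.03 (-0.14 to 0.21) in siSUZ12 + siBRM cells. Those of ASNS were -0.13 (-0.28 to 0.02), -0.20 (-0.36 to -0.05), -0.16 (-0.32 to -0.01) and -0.01 (-0.16 to 0.15). 3 of these intervals lie below 0 before adjustment, and the lowest adjusted p among the 8 tests was 0.237 (limma, ASNS in siSUZ12 cells). Altogether 5 of the 16 tests passed, 1 of 4 genes in siCtrl cells, 2 in siSUZ12 cells, 1 in siCtrl + siBRM and 1 in siSUZ12 + siBRM cells. Over all probes the share past the same threshold was 0.72% in siCtrl, 1.91% in siSUZ12, 1.3% in siCtrl + siBRM and 2.35% in siSUZ12 + siBRM cells. Median changes over the 4 genes were -0.15, -0.26, -0.17 and 0.00 in the same order, beside medians over all probes of -0.01, -0.05, 0.01 and -0.02.

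**Figure D3:**
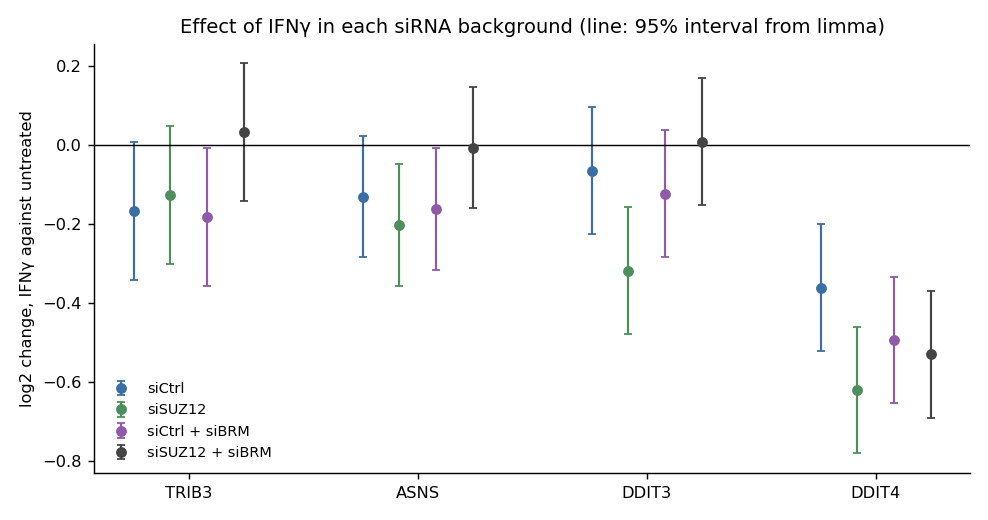
Log2 change with IFNγ against untreated cells, for each gene in the 4 siRNA backgrounds; points are limma estimates and lines their 95% intervals. DDIT4 lies below 0 in every background, from -0.36 to -0.62, and the other genes lie between -0.32 and 0.03.

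Whether an siRNA background altered the effect of IFNγ was tested as a difference of effects against siCtrl cells, 12 tests in all. None passed the threshold (limma with Benjamini-Hochberg adjustment), and 2 had an unadjusted p below 0.05. These were DDIT3 and DDIT4 in siSUZ12 cells. The IFNγ effect on DDIT4 differed there by a log2 of -0.26 (95% interval -0.49 to -0.03, adjusted p = 0.854, limma), and that on DDIT3 by -0.25 (-0.48 to -0.03, adjusted p = 0.864, limma). Of all probes, 0.199% passed for siSUZ12 cells, 0% for siCtrl + siBRM cells, where 1895 probes had an unadjusted p below 0.05, and 0.229% for siSUZ12 + siBRM cells. Of the remaining 10 estimates the one farthest from 0 was that of TRIB3 in siSUZ12 + siBRM cells, 0.20 (95% interval -0.05 to 0.45). The fall of DDIT4 in all backgrounds and the passing of DDIT3 in 1 of them therefore do not show that the backgrounds differ.

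To compare the profiles over the groups, the 8 group means of each gene were centred on their own mean. The distance between profiles was the root mean square of their log2 differences. Profiles were not scaled to a common size, so the distance reflects the size of the changes as well as their shape. DDIT3 lay nearest to the mean profile of the 4 genes, at 0.11, followed by ASNS at 0.23, TRIB3 at 0.39 and DDIT4 at 0.54. The genes themselves enter that mean, so their nearness is built in. The falls known when the genes were chosen also make up these profiles. The distances and ranks between genes are therefore a description and no support for a shared response. Between genes, DDIT3 and ASNS were 0.27 apart, DDIT3 and TRIB3 0.34, and ASNS and TRIB3 0.44. Among the 16394 detected probes, DDIT3 was the nearest to TRIB3, and ASNS was number 4. From DDIT3, ASNS was number 7 and TRIB3 number 20, and from ASNS, DDIT3 was number 9 and TRIB3 number 34. DDIT4 was number 331 from TRIB3, 371 from DDIT3 and 801 from ASNS. Seen from DDIT4, the other genes were among the farthest probes, DDIT3 at number 15851, ASNS at 16016 and TRIB3 at 16239. Since DDIT4 changed less than the others, these far ranks reflect size at least in part and do not show a different shape. DDIT4 stood 0.61 from DDIT3, 0.68 from ASNS and 0.91 from TRIB3.

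Outside the 4 genes, the probes nearest to the mean profile were ILMN_1693014 and ILMN_1692938, both at 0.18. ILMN_1693014 had a mean normalized signal of 3824 ± 311 in untreated siCtrl cells, 1406 ± 186 after siSUZ12, 1679 ± 138 after siBRM and 1115 ± 80.6 after both (SD, n = 3). For ILMN_1692938 these were 1661 ± 144, 546 ± 15.2, 743 ± 22.7 and 452 ± 12 (SD, n = 3). Both had the ASNS order, with the lower signal after siSUZ12, and their untreated joint changes fell short of the sum by 0.86 ± 0.13 and 0.88 ± 0.11. They were chosen for this likeness, over 8 group means, and carry no test.

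**Figure D4:**
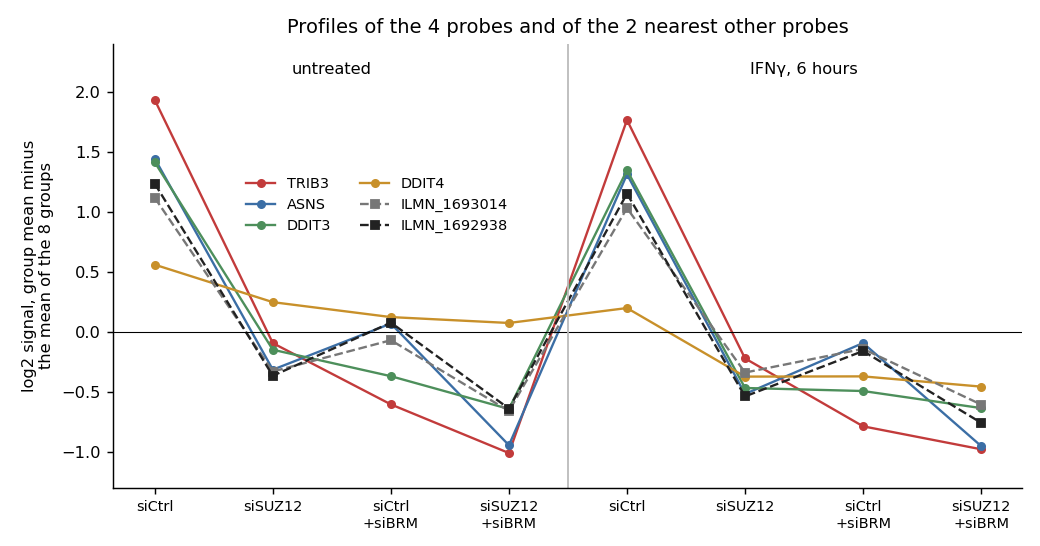
Log2 signal of each group minus the mean of the 8 groups, for the 4 genes (solid lines) and the nearest other probes (dashed), untreated groups left and IFNγ groups right. TRIB3, ASNS and DDIT3 rise to between 1.31 and 1.93 in both siCtrl groups and sit at or below 0.07 elsewhere, while DDIT4 stays between -0.46 and 0.56.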

How the data were processed

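Illumina HT-12 arrays of 24 samples were analysed. Per the paper's methods, the authors hybridized cRNA, 3 biological replicates per group, and used average normalization in BeadStudio. They deposited 1 table without normalization, holding the signal intensity of 47231 probes and a detection p-value for each intensity. Groups and replicate numbers came from the sample labels, which name no batch.

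Arrays were scaled to a common mean signal, the average over the 24 arrays. Scaled values below a floor of 16 would have been raised to it before the log2 step. With limma 3.58.1 (R 4.3.3), a model was fitted with 1 mean per group, leaving 16 residual degrees of freedom, and p-values were adjusted by Benjamini-Hochberg over the 47231 probes at a threshold of 0.05. The p-values and the 95% intervals rest on the spread between replicate arrays, shared over groups and moderated over probes. Replicate arrays were compared, and 0 pairs held identical intensities. In simulated data for IFNγ in siCtrl cells, with 200 of the 47231 probes changed, 81.5% were called at a log2 change of 0.5, with 7 false calls, and 99.5% at a log2 change of 1, with 15. The simulated noise was independent between arrays. No change below 0.5 was simulated, so the smaller IFNγ changes of the 4 genes in siCtrl cells are not covered.

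The 4 genes, the motifs and the tests were chosen with earlier results of these data known. The rule named these 4 genes and the 2 probes outside them with the most similar profile, among 16394 probes detected (detection p below 0.01) in all 3 arrays of a group. A list of further stress response genes was set but not analysed here, since 0 probe IDs were found in the reference tables. The alternatives were quantile normalization, neqc with an offset of 16, a higher floor (64), a restriction to probes that 3 or more arrays detected, a fit of the compared groups alone, robust eBayes with a trend, the replicate number as a block, and omission of each replicate number or array in turn. Figures were drawn with matplotlib 3.10.9.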

Additional observations from a re-analysis of the deposited data

How the results depend on the processing

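Over 1336 recomputed values of single genes, each array left out being counted by itself, 15 lost a call of IFNγ, none gained one and 25 changed direction. The lost calls were those of DDIT4 in siCtrl and of DDIT3 in siSUZ12 cells. Background correction by neqc changed the median over the 4 genes from -0.34 to -0.45 for siSUZ12 + siBRM against siCtrl + siBRM, untreated, and, for siSUZ12 + siBRM against siCtrl, from -2.22 to -2.33 untreated and from -2.12 to -2.22 with IFNγ. The count of genes past the threshold for IFNγ was 1 in siCtrl cells and ran from 0 to 1 with a replicate number or array left out. In siSUZ12 cells it was 2, ran from 1 to 2 in the same way, and was 1 in a fit of only the groups compared. All 25 changes of direction came with a replicate number or array left out. Of these, 24 were in IFNγ effects or differences that had not passed, and 1 was in an siRNA effect, that of siSUZ12 on DDIT4 in untreated siBRM cells, which went from -0.049 to 0.0016. In siSUZ12 + siBRM cells TRIB3 ran from -0.043 to 0.107, ASNS from -0.042 to 0.051 and DDIT3 from -0.054 to 0.063. The difference in IFNγ effect between siSUZ12 and siCtrl ran from -0.034 to 0.111 for TRIB3 and from -0.155 to 0.0076 for ASNS, and that between siCtrl + siBRM and siCtrl from -0.060 to 0.070 and from -0.137 to 0.032. The cause was not tested, beyond the fewer arrays. Deviations of same-numbered arrays of different groups correlated at -0.10 to 0.37 (median 0.11), those of differently numbered arrays at -0.33 to 0.19 (median -0.05), and 16 of 24 arrays correlated best with their own number. This is a hint of pairing in the data, but not every same-numbered pair shows it and the labels do not say what a number stands for, so the fit without pairing was kept. A replicate block changed no call, with an adjusted p of 0.0114 for DDIT4 in siCtrl cells and 0.0194 for DDIT3 in siSUZ12 cells (limma). Signals near background limit the folds, and 3 arrays per group limit the precision.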
